A study of Homo sapiens with 24 samples.

Results

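The untreated or control-transfected state of LNCaP cells was compared with that of PC3 and DU145 cells, using the control RNA that shared each array with a treated RNA. The comparison took 8 of the 24 samples of the series, namely 1 LNCaP control, 5 PC3 controls and 2 DU145 controls, all on the first of the 2 array designs. LNCaP came from a miR-145 array. PC3 1 and DU145 1 were the control channels of genistein arrays, PC3 2 and DU145 2 those of miR-145 arrays, and PC3 3, PC3 4 and PC3 5 those of miR-23b, miR-24 and miR-27b arrays. The labels describe the genistein controls as cells without treatment, whereas the study's methods call them vehicle treated. The 6 other controls were transfected with a control miRNA. Control RNA always carried the green dye Cy3 and no dye was swapped. Each line is an established cell line grown without stroma, in RPMI or DMEM medium per the labels, and LNCaP was represented by a single sample.

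All 3 lines were derived from metastases of prostate carcinoma. Androgens raise the transcription of many genes of secretory luminal prostate cells, among them the kallikreins. LNCaP is known as an androgen-responsive line, whereas PC3 and DU145 are known as lines that grow without androgen. KLK3 encodes prostate specific antigen and marks LNCaP among these lines.

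Levels are given as the log2 of the background-subtracted Cy3 signal minus the log2 of the 75th percentile of that array, so 0 is the level of the array's 75th percentile, 1 unit is a 2-fold difference, and probes without measurable RNA lie near -7. The share of spots well above background was 56.5% to 67.6% per array. A level compares 1 probe across arrays and not 1 gene with another.

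The arrays were first examined for a shared control RNA. The control channels of PC3 3, PC3 4 and PC3 5 differed from each other by a median of 0.0717 to 0.0781 log2 units over probes well above background on both arrays. The other 7 pairs of PC3 controls differed by 0.343 to 0.422, and all 14 other pairs of controls of the same line in the design by 0.228 to 0.422. The 3 later PC3 arrays, which share a slide, were therefore far closer than any other pair of controls of 1 line and were averaged to 1 sample. LNCaP differed from the PC3 and DU145 controls by 0.605 to 0.649. LNCaP, PC3 1, PC3 2, DU145 1 and DU145 2 lay on 1 slide, and only PC3 had arrays on the second one.

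The markers matched the labels. KLK3 lay at 7.52 in LNCaP and was not well above background on any PC3 or DU145 array, where it lay between -8.02 and -6.80. The luminal keratins KRT8 and KRT18 were well above background on all 8 arrays, KRT18 at 5.41 in LNCaP, 4.89 to 5.56 in PC3 and 6.28 to 6.87 in DU145. Of the markers of leukocytes, endothelium and fibroblasts, CD3E, DCN and COL3A1 were above background on no array. The summed linear signal of the 10 such markers examined was 1.05 times the 75th percentile in LNCaP, 0.321 to 0.666 in PC3 and 0.296 to 0.81 in DU145, and VWF, which encodes von Willebrand factor of endothelial cells, was at -0.48 in LNCaP against -5.77 or less elsewhere. The endothelial marker PECAM1 was not above background in LNCaP, at -6.98, and lay at -4.07 to -1.35 in PC3, and CDH5 was at -3.71 in LNCaP against -3.90 to -3.23 elsewhere. The part of such cells in the results was not tested. In bulk RNA fewer cells with a transcript and less of it per cell cannot be told apart.

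A gene was called when limma gave a Benjamini-Hochberg adjusted p under 0.05 over all probes for LNCaP against PC3 and also for LNCaP against DU145, with the same sign. With 1 LNCaP sample the spread came from the 3 PC3 and 2 DU145 samples, and LNCaP was assumed to vary as they do. Of 22082 features tested, 1238 (5.61%) were higher and 1004 (4.55%) lower in LNCaP, 885 and 883 of them named genes. By size alone, 2043 features (9.25%) lay more than 1 log2 unit above every PC3 and DU145 sample and 1449 (6.56%) more than 1 unit below, and all called features were among them. The median difference over all features was 0.19 log2 units, and 0.16 with median scaling and 0.10 with quantile normalization. Restricted to the first slide, the counts were 984 higher and 807 lower.

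In 481 of the higher and 538 of the lower features, the dim side was not well above background on any array. Such a feature entered the test only through the side in which it was bright, so it had to differ, and counts and medians over tested members carry this selection. For these genes a fold change is a lower bound, written "at least", computed against the higher of the probe's own value and the lowest signal that counted as well above background on each array.

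For the most extreme genes both contrasts were large, and the plot of the 2 differences places these genes near its corners.

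**Figure D1:**
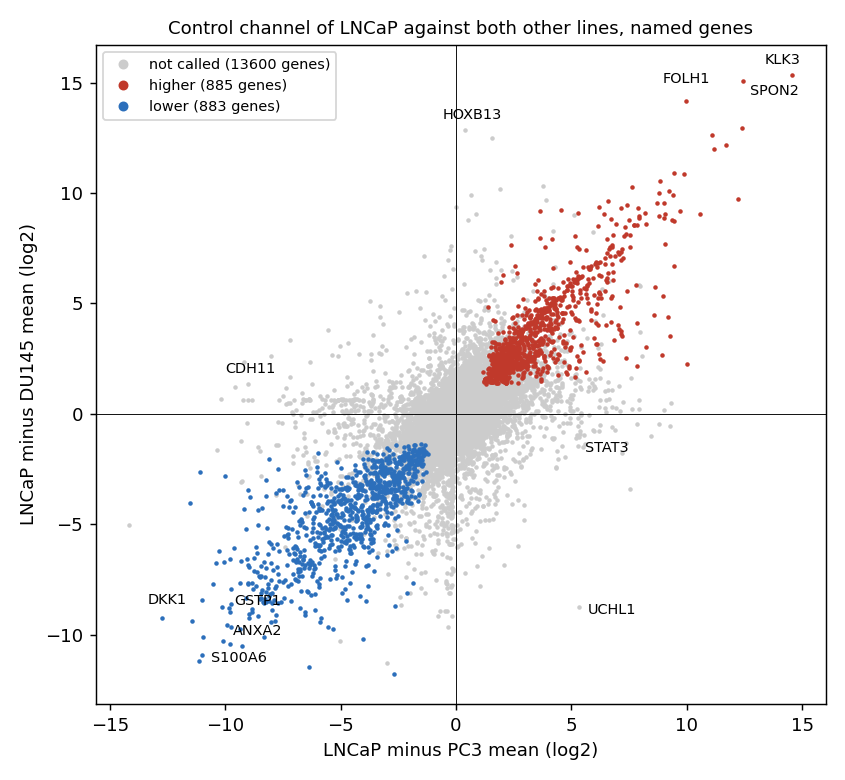
Difference of LNCaP from the PC3 mean (horizontal, log2) and from the DU145 mean (vertical, log2) for each named gene tested, with called genes coloured by direction and some genes labelled. KLK3, SPON2 and FOLH1 lie at the upper right, at 9.96 to 15.36 on both axes, and S100A6, ANXA2 and GSTP1 at the lower left, at -11.00 to -8.76.

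KLK3 was far above both other lines. Its probe lies at chr19:51363961-51364020 on the plus strand of hg19. It gave 7.52 in LNCaP, -7.08, -7.22, -6.91, -6.93 and -6.80 in PC3 1 to 5, and -8.02 and -7.67 in DU145 1 and 2. LNCaP was at least 4748-fold above PC3 and at least 8821-fold above DU145 (14.58 ± 0.36 and 15.36 ± 0.38 log2 units, adjusted p = 0.000155 and 0.000204, limma). A second KLK3 probe was dimmer, at 2.21 in LNCaP against means of -6.00 and -5.56, and was called in the same direction.

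KLK2, a secreted protease of luminal cells, is the neighbour of KLK3. It was at 1.82 in LNCaP, at -5.53, -4.50, -4.19, -3.94 and -4.25 in PC3 1 to 5 and at -4.70 and -3.95 in DU145. LNCaP exceeded both lines without overlap, 92.8-fold over PC3 (adjusted p = 0.00114) and 70.6-fold over DU145 (adjusted p = 0.00205, limma).

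The promoters of KLK3 and KLK2 are shown because both genes were among the called androgen-regulated genes and their starts hold the same stretch. RefSeq promoters (GRCh38.p14, 250 bases before to 50 after the start) were given for 14 of the 20 called genes of the androgen list. They were searched on both strands for GNACANNNNGTNC, a relaxed form of the androgen response element. It occurred in 3 of the 14 promoters (21.4%), those of KLK3, KLK2 and GNMT, against 2.14% of all 27305 promoters and 1.72% of the 12040 promoters of tested named genes. The genes of the list were chosen as known to respond to androgen, so the share describes the list and not LNCaP. The single half-site AGAACA occurred in 7.14% of the 14, in 9.33% of promoters of tested genes and in 14.9% of all promoters. The match begins 169 bases before the KLK3 start at chr19:50854665-50854964 (plus strand) and 175 bases before the KLK2 start at chr19:50873189-50873488 (plus strand), and is printed in capitals.

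KLK3: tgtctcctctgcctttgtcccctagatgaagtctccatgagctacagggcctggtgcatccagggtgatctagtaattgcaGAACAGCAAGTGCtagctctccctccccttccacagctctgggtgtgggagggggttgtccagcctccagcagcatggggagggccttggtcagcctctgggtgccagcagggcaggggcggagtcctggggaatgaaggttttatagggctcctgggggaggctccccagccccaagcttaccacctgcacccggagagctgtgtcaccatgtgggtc

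KLK2: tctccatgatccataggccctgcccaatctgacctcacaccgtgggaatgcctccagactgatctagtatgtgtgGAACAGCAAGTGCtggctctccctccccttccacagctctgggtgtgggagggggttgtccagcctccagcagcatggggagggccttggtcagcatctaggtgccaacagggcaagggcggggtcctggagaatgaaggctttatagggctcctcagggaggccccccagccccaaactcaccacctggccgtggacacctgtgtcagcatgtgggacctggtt

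The 13 capital letters are identical in the 2 promoters. The match in GNMT, a glycine methyltransferase, begins at base 20 counted from the start and reads GGACAGCGTGTAC.

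Of the 34 tested members of the androgen list, 20 (58.8%) were higher in LNCaP, against 5.61% of all features, and none lower. The median difference was 3.45 log2 units, against 0.19 over all features. Unadjusted p under 0.05 in both limma contrasts also gave 20 higher and 0 lower, and 21 were more than 1 unit above every other sample. STEAP4 did not pass the filter on dim probes. FOLH1, which encodes prostate specific membrane antigen, was at 6.99 in LNCaP, at -3.52, -4.99, -0.45, -0.31 and -0.42 in PC3 1 to 5 and at -7.29 and -7.07 in DU145. The later PC3 arrays, on the second slide, held more FOLH1 than PC3 1 and PC3 2, and LNCaP still lay above all of them (994-fold over the PC3 mean, adjusted p = 0.00727; at least 6119-fold over DU145, adjusted p = 0.00275; limma).

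Other genes of the list were also higher in LNCaP and not above background on most or all other arrays. ACP3, prostatic acid phosphatase, was at 2.88 in LNCaP and at -7.38 to -5.93 elsewhere, at least 191-fold higher than PC3. KLK4 was at 0.71 in LNCaP and at -7.07 to -6.58 elsewhere, at least 42.5-fold higher. KCNN2, a calcium-activated potassium channel, was at 3.58 against -6.57 to -5.37. In these 3 genes no PC3 or DU145 value came within 7 log2 units of LNCaP.

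The metalloreductases STEAP1 and STEAP2 were well above background on every array and were higher in LNCaP, STEAP1 at 5.11 against 1.34 to 2.45 and STEAP2 at 4.83 against -1.05 to 0.53. PLPP1, a lipid phosphatase, was at 4.81 against 0.64 to 1.13, 15.6-fold and 14.03-fold higher.

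TMPRSS2, a membrane serine protease, was at 2.84 in LNCaP, at 0.07, -3.10, -1.08, -1.05 and -0.69 in PC3 1 to 5 and at -5.11 and -5.0 in DU145. PC3 varied by over 3 log2 units between its first 2 arrays, and the call was lost without DU145 1 or DU145 2 (larger adjusted p = 0.0515 in each case) and without the later PC3 arrays (0.0988, limma). The calls of 4 more members depended on 1 sample as well, ABCC4 on either DU145 array (0.0597 without DU145 1 and 0.0782 without DU145 2), MAF on the later PC3 arrays (0.0589), SLC45A3 on the same arrays (0.0825) and SORD on each DU145 array or PC3 1 (0.0783, 0.078 and 0.0586). The other 15 remained called whichever sample was left out.

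Not all androgen-regulated genes were higher. FKBP5, a chaperone of steroid receptors, was at -1.56 in LNCaP, at -4.72 to -2.87 in PC3 and at -0.49 and -0.10 in DU145, above PC3 and below DU145. NDRG1 was at 2.70 in LNCaP and spread from 3.06 to 6.48 in PC3. CAMKK2, ELL2, NCAPD3 and ACSL3 lay within 1.70 log2 units of both group means. HPGD, which degrades prostaglandins, was not above background in LNCaP or DU145 and reached 1.65 in PC3.

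**Figure D2:**
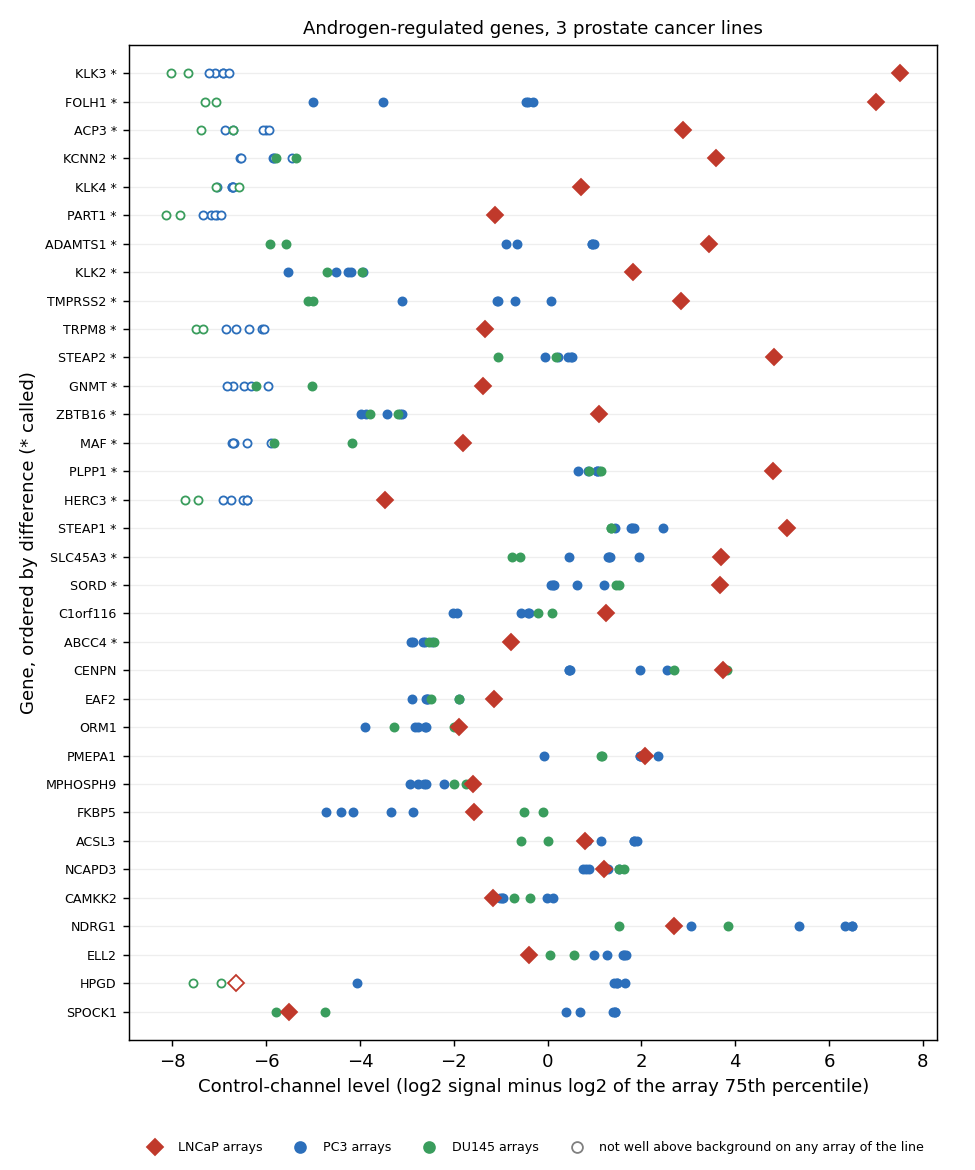
Control-channel level (log2 signal minus log2 of the array's 75th percentile, horizontal) of each tested member of the androgen list, 1 point per array, with LNCaP, PC3 and DU145 in separate colours, open symbols where no array of the line was well above background, and called genes starred. KLK3 at 7.52 and FOLH1 at 6.99 in LNCaP stand far to the right of every PC3 and DU145 array, whereas in FKBP5, ACSL3 and NDRG1 LNCaP lies among them.

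Of 12 tested genes of androgen and steroid metabolism, 3 were higher and none lower (median 0.87; 4 higher and 0 lower unadjusted). UGT2B15, which attaches glucuronic acid to androgens, was at 4.10 in LNCaP, at -6.65, -7.13, -4.05, -3.23 and -3.60 in PC3 1 to 5 and at -6.37 and -7.12 in DU145. As for FOLH1, the later PC3 arrays lay above PC3 1 and PC3 2 and LNCaP above all. The related UGT2B11 was at 1.96 against -7.41 to -4.21. Genes of the UGT2B cluster are near copies, so their probes may read each other. SRD5A3 was 3.17-fold and 5.39-fold higher, with adjusted p = 0.044 and 0.0168, and the call did not hold in every set with 1 sample left out.

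Among the 23 luminal identity genes, 4 were higher and 2 lower (median 1.38; 6 and 2 unadjusted). That is 17.4% and 8.7%, against 5.61% and 4.55% of all features. TMEFF2 was at 3.12 in LNCaP and between -7.93 and -3.88 elsewhere. GATA2, a zinc finger factor of luminal cells, was at 1.04 in LNCaP against -3.49 to -2.45, 13.2-fold above PC3 and 17.6-fold above DU145 (adjusted p = 0.00255 and 0.00245, limma). MSMB and AMACR were the other 2 higher genes, and AMACR lost its call in at least 1 set with a sample left out. FOXA1, a pioneer factor of luminal cells, was at 3.69 in LNCaP, 1.01 to 2.78 in PC3 and 1.07 and 1.61 in DU145, above each of them but not called (adjusted p = 0.21 and 0.101).

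HOXB13, the homeobox factor of the prostate, separated DU145 instead. It was at 5.18 in LNCaP and at 6.09, 3.30, 4.94, 5.0 and 4.79 in PC3, whereas DU145 was not above background at -7.68 and -7.69. The LNCaP level lay inside the PC3 range. The keratins KRT19 and KRT7, also on the luminal list, were the 2 lower genes, KRT19 at -0.71 in LNCaP against 6.66 to 7.64, a 223-fold and 224-fold difference (adjusted p = 0.000258 and 0.000372). KRT7 lost its call in at least 1 such set.

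Genes of basal and squamous keratinocytes were lower where they were called, 4 of 14 tested (28.6%, against 4.55% of all features). None were higher (median -2.44; 6 lower and 0 higher unadjusted). KRT5, KRT16, KRT17 and TP63 did not pass the filter on dim probes, so the list rests on other members. LAMB3, a laminin chain, and ITGB4, an integrin chain that binds laminin, were among the 4. LAMB3 was at -2.66 in LNCaP, at 3.22, 5.34, 4.91, 5.06 and 4.83 in PC3 and at 4.24 and 5.84 in DU145, 142-fold and 208-fold lower (adjusted p = 0.00397 and 0.00435). ITGB4 was at -3.03 against 1.27 to 3.34. The others were SFN and S100A2, at -0.94 and -1.90 in LNCaP.

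The epithelial junction list moved the other way, with 6 of 23 higher (26.1%, against 5.61% of all features). None were lower and the median was 2.16 (7 and 0 unadjusted). RAB25, a small GTPase of epithelial recycling endosomes, was at 2.10 in LNCaP and not above background in PC3 or DU145 (-7.48 to -6.27), at least 111-fold and at least 207-fold higher. GRHL2, a factor that maintains epithelial genes, was at 1.06 against -6.74 to -3.96, and PRSS8, a membrane protease, at 4.85 against -1.90 to 0.65. MARVELD2 of tricellular junctions was 8.43-fold and 5.76-fold higher. The OCLN call was lost in each set with 1 sample left out. That of OVOL1 was lost without DU145 2 and without the later PC3 arrays.

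Several junction genes split the lines between PC3 on the one side and LNCaP and DU145 on the other. CDH1, E-cadherin, was at 4.03 in LNCaP, at -0.56, -2.34, -0.60, -0.57 and -0.62 in PC3 and at 2.54 and 2.29 in DU145. LNCaP differed from PC3 (36.7-fold, adjusted p = 0.0051) and not from DU145 by the test (3.06-fold, adjusted p = 0.235, limma). CLDN7, CRB3 and CGN likewise passed against PC3, by 5.14, 5.25 and 3.75 log2 units, and not against DU145, at 1.07 ± 0.62, 0.23 ± 0.52 and 0.43 ± 0.43.

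Mesenchymal genes were lower in LNCaP in 8 of 22 tested (36.4%, against 4.55% of all features) and higher in none. Their median was -3.51 (10 lower and 0 higher unadjusted). VIM, the intermediate filament protein vimentin, was at -0.40 in LNCaP, at 6.40, 6.77, 6.14, 6.26 and 6.04 in PC3 1 to 5 and at 6.03 and 7.25 in DU145. It was 114-fold lower than in PC3 and 132-fold lower than in DU145 (adjusted p = 0.000645 and 0.000895, limma). ZEB1, a repressor of epithelial genes, was not above background in LNCaP (-6.46) and lay between -1.16 and 1.13 elsewhere. CD44, the hyaluronan receptor, was at -5.01 in LNCaP, also below background, against 2.65 to 4.81, at least 538-fold and at least 316-fold lower.

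S100A6 and LGALS1 had the largest differences of the list. S100A6, a calcium-binding protein, was at -3.42 in LNCaP, at 7.38, 7.30, 8.02, 8.37 and 7.83 in PC3 and at 7.25 and 7.75 in DU145. LNCaP was still above background and lay 2054-fold below PC3 and 1936-fold below DU145 (differences of -11.00 ± 0.45 and -10.92 ± 0.48). LGALS1, galectin-1, was at -3.02 against 6.35 to 7.35. All 8 calls of the list, including AXL, TNC and LOXL2, held with each sample left out.

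The cadherins CDH2 and CDH11 and the matrix genes TGFBI and FN1 of the same list did not follow both lines. CDH2, N-cadherin, was at -5.02 in LNCaP and -6.15 and -6.26 in DU145, and at 1.26 to 3.28 in PC3. CDH11 was at 2.48 to 2.91 in PC3 and not above background in LNCaP or DU145. TGFBI was high in DU145 only, at 5.10 and 5.0. In FN1, LNCaP at -2.73 lay within the PC3 range of -3.84 to -2.59 and above DU145.

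Of 21 genes of caveolae, annexins and actomyosin, 11 were lower and 1 higher (52.4% and 4.76%, against 4.55% and 5.61% of all features). Their median was -3.43 (13 and 1 unadjusted). CAV1, the main coat protein of caveolae, was at -6.26 in LNCaP, at 3.09, 3.89, 3.45, 3.48 and 3.48 in PC3 1 to 5 and at 3.22 and 3.57 in DU145. It was not above background in LNCaP and at least 353-fold lower than in PC3 and at least 332-fold lower than in DU145 (adjusted p = 0.000181 and 0.000284, limma). CAV2 was also below background in LNCaP, at -6.34 against 0.44 to 2.39. The cavin CAVIN1 was read differently by its 2 probes. The brighter one gave 7.41 in LNCaP and means of 6.97 and 7.45, and the other gave 0.23, -5.98 and 6.45, so no direction is given for it.

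Annexins bind membrane phospholipids in the presence of calcium. Of 10 annexins tested, on the list or not, 4 were lower, 1 was higher (ANXA9, at -0.08 against -3.67 or less) and 5 were not called. ANXA2 was at -3.77 against 6.07 to 6.65, 1078-fold below PC3 and 1261-fold below DU145, and its light chain partner S100A10 was at -0.76 against 4.85 to 6.49. ANXA1 was at -2.62 against 3.31 to 5.53, and ANXA3 was not above background in LNCaP, at -6.98 against 1.34 to 4.19. The 1 higher gene was CALD1, an actin-binding protein, at 5.10 against -0.39 to 1.86, 10.68-fold and 25.8-fold higher. The ACTN1 call was lost in at least 1 set with a sample left out, and FLNA was called by 1 of its 3 probes.

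**Figure D3:**
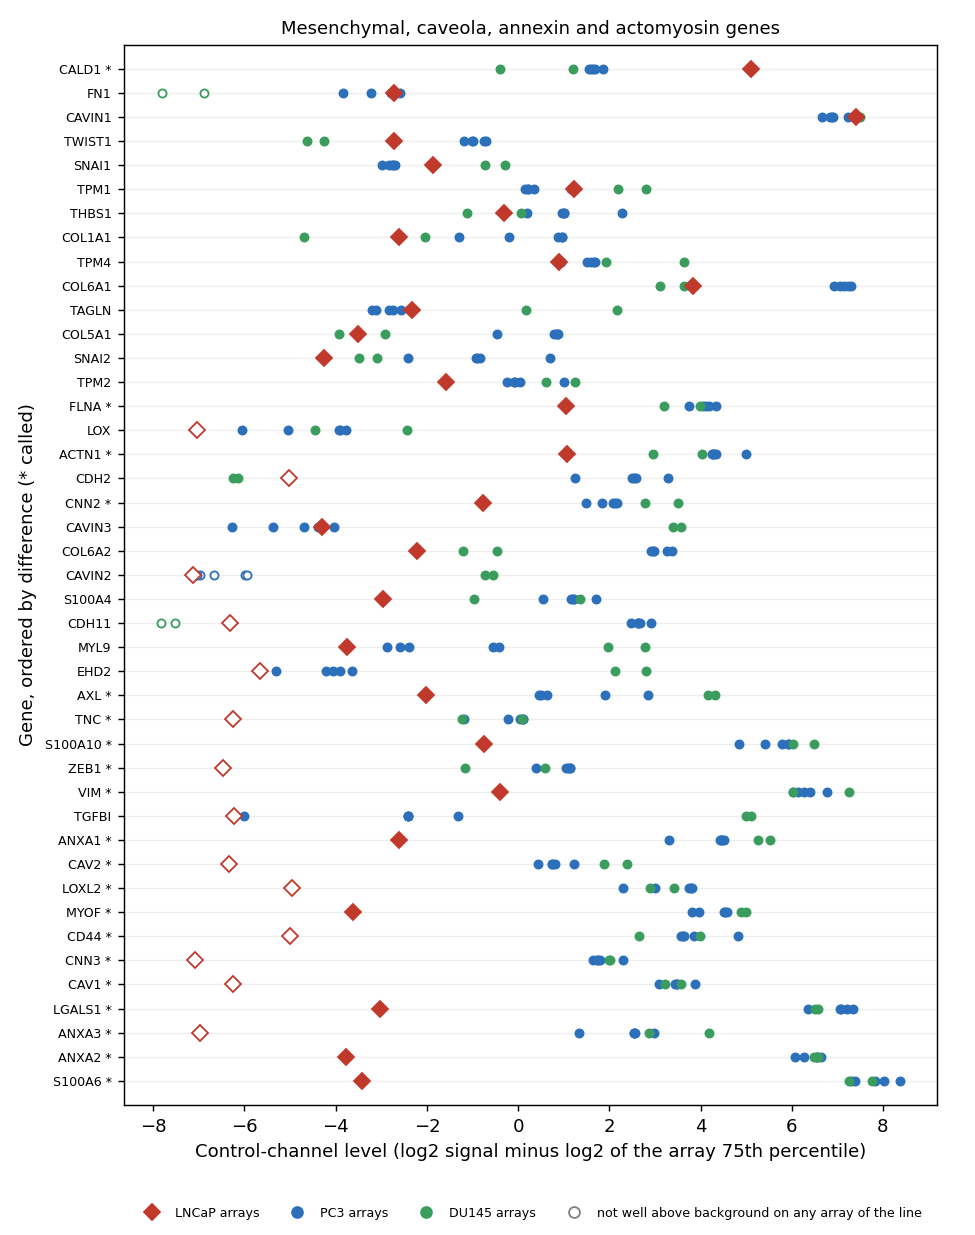
Control-channel level (log2 signal minus log2 of the array's 75th percentile, horizontal) of each tested member of the mesenchymal and the caveolae, annexin and actomyosin lists, 1 point per array, with open symbols where no array of the line was well above background and called genes starred. LNCaP lies at -6.26 for CAV1, -3.77 for ANXA2 and -0.40 for VIM while every PC3 and DU145 array lies at 3.09 or more, and CALD1 is the called gene in which LNCaP lies to the right.

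YAP and TAZ are coactivators that act through the TEAD factors, and of 12 such genes and their targets 3 were lower and none higher (median -1.93; 5 and 0 unadjusted). The factor TEAD1, the coactivator gene WWTR1 and 1 target gene, AMOTL2, each lost the call in at least 1 set with a sample left out. The matricellular gene CCN1 was at 0.62 in LNCaP against 2.85 to 5.54 and was not called (adjusted p = 0.0738 and 0.0823). WWTR1, which encodes the YAP paralogue TAZ, was not above background in LNCaP, at -4.70 against -1.13 to 1.14.

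By the brightest probe of each gene, receptor tyrosine kinases were lower in 6 of 21 tested (28.6%, against 4.55% of all features). None were higher (median -0.75; 7 and 0 unadjusted). MET, the hepatocyte growth factor receptor, was at -3.82 in LNCaP, at 4.37, 4.96, 5.80, 5.79 and 5.75 in PC3 and at 3.12 and 4.54 in DU145, 463-fold and 200-fold lower (adjusted p = 0.00067 and 0.0016, limma). Its relative MST1R was at -4.70 against 0.68 to 1.75, and EPHA2 was below background in LNCaP at -5.83 against -0.94 to 1.67. FGFR1, AXL and ROR1 were the other lower genes, and ROR1 lost its call in at least 1 set with a sample left out. Some uncalled members lay higher in LNCaP. The brightest ERBB2 probe was 2.27 log2 units above PC3 and 1.31 above DU145. A dimmer ERBB2 probe was called higher, by 2.39 and 2.02 units. ERBB3 lay 3.87 and 2.25 units above them, and FGFR3 4.94 and 0.70. EGFR was at -1.99 in LNCaP against -1.06 to 0.54 and was not called (adjusted p = 0.182 and 0.14).

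Genes of the plasminogen system, metalloproteinases and metalloproteinase inhibitors were lower in 5 of 9 tested and higher in 1. That is 55.6% and 11.1%, against 4.55% and 5.61% of all features (median -5.31; 6 and 1 unadjusted). SERPINB2, MMP2, MMP3, MMP10, MMP13 and TIMP3 did not pass the filter on dim probes. PLAU, the urokinase plasminogen activator, was at -1.82 in LNCaP, at 5.56, 7.24, 6.42, 6.47 and 6.33 in PC3 and at 6.31 and 7.12 in DU145, 298-fold and 371-fold lower (adjusted p = 0.000702 and 0.000918). Its receptor PLAUR was at -4.10 against 0.06 to 2.09. MMP14 and TIMP1 were not above background in LNCaP, TIMP1 at -6.86 against 1.80 to 3.35. MMP7, a small metalloproteinase of epithelia, was the higher gene at -0.82 against -7.73 to -5.08, and all 6 calls held with each sample left out.

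Inflammatory genes were lower in 6 of 18 tested (33.3%, against 4.55% of all features) and higher in none. Their median was -3.12 (10 and 0 unadjusted, and 11 by size). ICAM1, a leukocyte adhesion receptor, was at -6.95 in LNCaP against -0.86 to 2.12, and IL18 at -7.13 against 0.46 to 1.48. The cytokines varied widely within the other lines. IL6 was at -6.63 in LNCaP, at -2.50, 2.45, -1.85, -1.72 and -1.84 in PC3 1 to 5 and at -0.27 and -0.99 in DU145, and was not called although every other sample was over 4 units higher (adjusted p = 0.0639 and 0.0855). CXCL8 was not called either (adjusted p = 0.105 and 0.242), with PC3 2 at 0.04 against -2.94 to -2.71 in the other PC3 arrays. The calls of CXCL1, CXCL2 and RELB did not hold in every set with 1 sample left out.

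Of 31 genes of interferon signalling, 4 were lower and none higher (12.9% lower against 4.55% of all features; median -0.73; 5 and 0 unadjusted). JAK1, a kinase of the interferon receptors, was not above background in LNCaP, at -5.83 against -2.27 to -1.41, at least 10.73-fold and at least 7.83-fold lower. IFI16, a DNA sensor, was at -6.85 against -3.40 to -0.82. MX2 and IRF1 were the others, and the IRF1 call was lost in each set with 1 sample left out. Another MX2 probe was not called, at -3.28 in LNCaP against means of -3.43 in PC3 and -3.45 in DU145. The MX2 call was lost with the mean over the gene's probes. STAT3 was at -1.33 in LNCaP and -0.18 and -0.60 in DU145 and was not above background on any PC3 array.

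In the MHC class I list, 4 of 14 were lower (28.6%, against 4.55% of all features). None were higher (median -1.16; 5 lower and 0 higher unadjusted). PSMB8, an immunoproteasome subunit, was at -4.0 against -0.59 to 1.47 and ERAP2, a peptide-trimming enzyme, at -2.88 against 0.29 to 1.75. The light chain B2M was at 3.34 against 4.72 to 5.53, 3.16-fold and 3.68-fold lower (adjusted p = 0.0369 and 0.0334), and its call, as that of HLA-F, did not hold in every set with 1 sample left out. HLA genes are near copies of each other and their probes can disagree. For HLA-F the brightest probe put LNCaP 1.44 log2 units below PC3 and another probe put it 0.85 above, the latter not called.

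Of 18 genes of the NRF2 list, 2 were lower (11.1%, against 4.55% of all features) and none higher (median -0.32; 3 and 1 unadjusted). The glutathione transferase GSTP1 was 1 of them. It was at -3.74 in LNCaP, at 6.36, 6.51, 6.27, 6.41 and 6.15 in PC3 1 to 5 and at 4.85 and 5.19 in DU145. LNCaP was 1118-fold below PC3 and 435-fold below DU145 (differences of -10.13 ± 0.35 and -8.76 ± 0.37, adjusted p = 0.000155 and 0.000284, limma). The other was the drug exporter ABCC3, at -7.11 against 0.84 to 2.60.

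Of 6 tested neuroendocrine genes, 2 were higher (33.3%, against 5.61% of all features) and none lower (median -1.15; 2 and 1 unadjusted). DDC, the decarboxylase of dopamine and serotonin synthesis, was at 5.51 in LNCaP, at -6.90 to -6.41 in PC3 and at -3.96 and -4.45 in DU145, and NTS, neurotensin, at 1.25 against -7.75 to -5.84. CHGA and SYP, which define neuroendocrine cells, did not pass the filter on dim probes. UCHL1 was at 7.18 and 7.56 in DU145 and at -1.38 in LNCaP.

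Lists of general metabolism and growth held at most 2 calls. Of 18 genes of lipid and polyamine synthesis, 2 were higher and none lower (11.1% higher against 5.61% of all features; median 0.70; 4 and 0 unadjusted). AMD1 was at 5.75 against 2.90 to 3.44 and ACACA at 4.91 against 2.61 to 2.95. FASN was at 3.34 against 1.76 to 2.46 and not called. No proliferation gene of 20 was called by limma (median -0.13; 0 higher and 1 lower unadjusted, none by size), and MKI67 was at 0.12 in LNCaP, -0.54 to 0.96 in PC3 and 1.52 and 2.63 in DU145. No reference gene of 11 was called by limma either (median -0.31; none unadjusted, none by size), with GAPDH at 6.20 against 6.04 to 6.75.

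Transcription factor families were mixed. Of 11 ETS factors 2 were higher and 5 lower (18.2% and 45.5%, against 5.61% and 4.55% of all features). Their median was -1.94 (2 and 5 unadjusted). EHF, an epithelial factor, was at 2.30 in LNCaP, -5.04 to -3.36 in PC3 and -7.16 and -7.47 in DU145, whereas ETV4 and ETV5 were not above background in LNCaP and at -3.27 to 0.63 and -2.49 to -1.41 elsewhere. Of 12 posterior HOX genes 1 was higher and 2 lower (8.33% and 16.7%; median -0.73; 1 and 2 unadjusted). HOXC12 was higher, at -0.47 against -8.07 to -6.84, and HOXC8 and HOXA11 were lower. The HOXC8 call was lost without DU145 1, DU145 2 or the later PC3 arrays (0.0568, 0.0634 and 0.063), and that of the ETS factor ELK3 without the later PC3 arrays (0.0608, larger adjusted p, limma). Of 7 tested markers of leukocytes, endothelium and fibroblasts, VWF was higher and CD68 lower (2 and 1 unadjusted), and the CD68 call was lost without PC3 1 or PC3 2 (larger adjusted p = 0.0902 and 0.0812, limma).

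**Figure D4:**
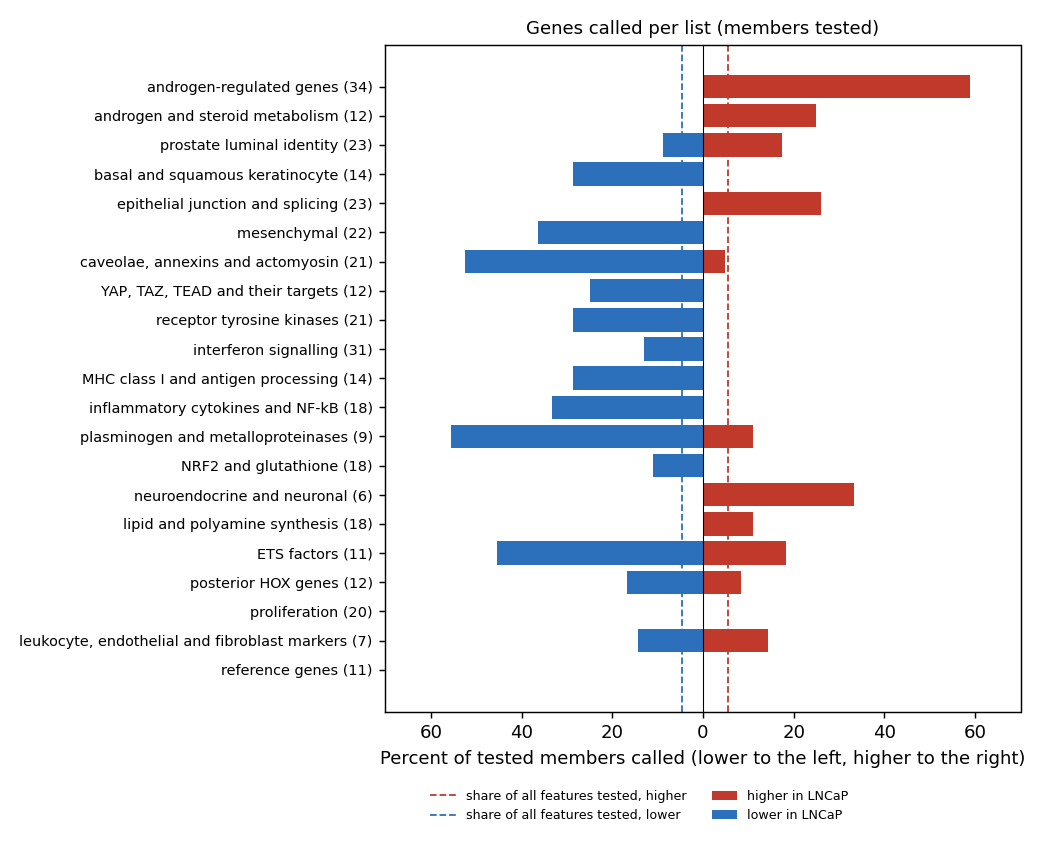
Percent of the tested members of each list called higher (to the right) or lower (to the left) in LNCaP, with the number tested beside each name. The androgen list stands out to the right at 58.8%, the plasminogen and caveolae lists to the left at 55.6% and 52.4%, against 5.61% and 4.55% of all features.

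Outside the lists, the 15 largest differences in each direction added further genes. SPON2, a secreted matrix protein, was at 8.51 in LNCaP, at -4.13, -3.70, -3.98, -4.0 and -3.92 in PC3 and at -7.38 and -5.71 in DU145, 5564-fold above PC3 and at least 17550-fold above DU145. The cancer-testis genes GAGE12F and MAGEA2B, which have near-identical copies, were at 5.99 and 4.97 against values of -5.0 or less. SYT4, GLYATL1, NETO1 and GPR158 completed the group, at 4.24, 3.74, 3.39 and 2.46 in LNCaP and at -4.62 or less elsewhere.

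On the lower side, DKK1, a secreted Wnt inhibitor, was at -7.03 in LNCaP, at 5.04, 5.98, 6.13, 6.17 and 6.06 in PC3 and at 1.61 and 2.80 in DU145, at least 1655-fold and at least 145-fold lower. The chaperone gene HSPA1A was at -7.08 against 3.0 to 4.40, and VEGFC, a lymphatic growth factor, at -7.22 against 0.97 to 4.64. G0S2, SGCE, MICB and S100A16 were likewise over 7 units below every other sample. In LNCaP, HSPA1A, VEGFC, G0S2, SGCE and MICB lay near -7, the level of probes without measurable RNA, so their fold changes are lower bounds. A second MICB probe was called lower by less, at -2.71 in LNCaP against means of -0.83 in PC3 and -0.23 in DU145. The pseudogene ANXA2P1 was at -7.03 against 3.81 to 4.47, and since it resembles ANXA2 its probe cannot be told apart from that gene here.

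The other dye gave a second RNA of each line. On the miR-145 arrays the Cy5 channel held cells transfected with miR-145, 1 array a line. Of the 1238 higher features, 1162 (93.9%) were more than 1 log2 unit above both PC3 and DU145 in that channel, as were 13.8% of all features tested, and of the 1004 lower features 929 (92.5%) were more than 1 unit below both, as were 9.62% of all. KLK3 was at 7.15, -7.71 and -1.75 in miR-145 transfected LNCaP, PC3 and DU145. In the control channel of the same DU145 array KLK3 was at -7.67, below background, so the miR-145 channel held more of it. CAV1 was at -6.87, 3.08 and 3.49. IRF1 was at 0.73, 0.77 and 0.34 and B2M at 6.74, 6.95 and 6.46, with LNCaP between the other lines, where the control channel had placed it lower.

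**Figure D5:**
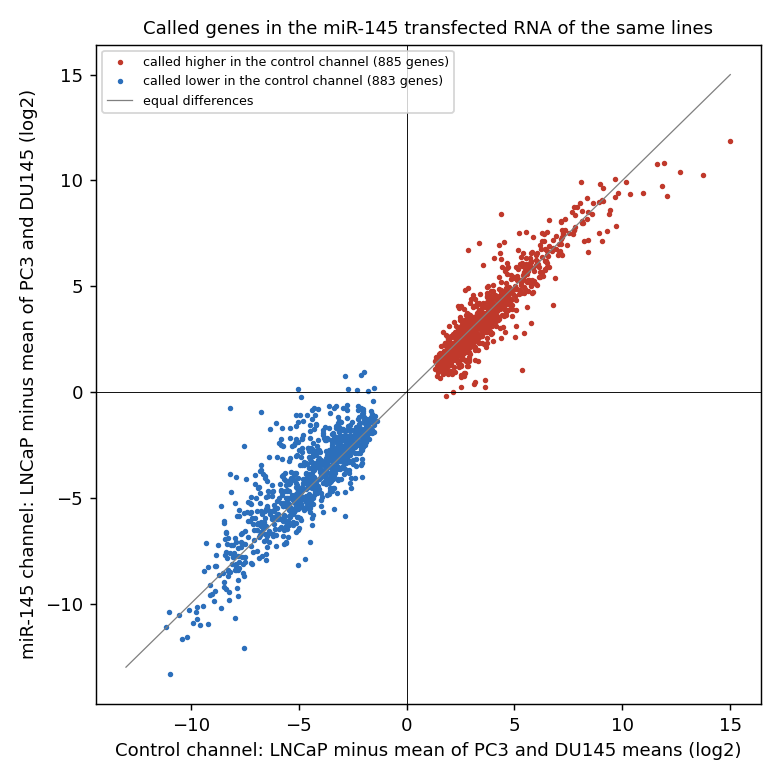
Difference of LNCaP from the mean of the PC3 and DU145 means in the control channel (horizontal, log2) and the corresponding difference in the miR-145 channel (vertical, log2) for the called named genes, with the line of equal differences. Most points lie along the line, KLK3 is the point farthest to the right, and some genes called lower in the control channel lie near or above 0 in the miR-145 channel.

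The control channels of the 4 other cancer lines on this array design, FaDu, SAS, A498 and 786O, showed which differences were shared more widely. Of the 1238 higher features, 834 (67.4%) were also more than 1 log2 unit above every control array of those lines, against 8.77% of all features, and of the 1004 lower features 543 (54.1%) were below all of them, against 4.11%. The called features were chosen by the same LNCaP values that are compared here, so shares above those of all features follow from that choice. Since the lines come from other organs and no test was made, these shares are descriptions of the LNCaP sample.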

How the data were processed

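Gene expression was measured on Agilent 60K human arrays of 2 colours, with control RNA in Cy3 and treated RNA in Cy5. RNA was extracted with Trizol per the labels, while the methods name another kit for the genistein arrays. The authors deposited Agilent Feature Extraction 10.7.3.1 output, in which each spot has an intensity that the software had background-subtracted and dye-normalised against the other channel of the same array. A control level can therefore shift with the treated RNA beside it. The deposited log ratios and p-values were not used.

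Control spots and outlier spots were left out, saturated spots kept, and spots of a probe averaged. The log2 of the deposited Cy3 intensity minus the log2 of the array's 75th percentile was tested for 27738 of 42405 probes (65.4%), those well above background in LNCaP or on all arrays of PC3 or DU145. The software's flag had to hold for 0.5 or more of a probe's spots on an array. Names came from RefSeq GRCh38.p14 (28431 probes matched, 20513 genes) and a gene was shown by its brightest tested probe. Array coordinates are hg19.

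The fit used limma 3.58.1 in R 4.3.3 with cell line as the only factor, 6 samples and 3 residual degrees of freedom. The labels do not say whether samples came from separate cultures, so p-values measure the spread between these samples, which may be technical. The number of arrays limits the precision. The fit was tested on simulated data. The genes named are members of 21 lists plus the 15 largest calls in each direction, and some genes are not reported here. Members and lists were chosen with earlier results of these data known.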

Additional observations from a re-analysis of the deposited data

Results flagged for a closer look

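In the Cy5 channel of the DU145 miR-145 array, several genes of LNCaP gave signal although neither DU145 control array held them above background. These were 7 of the 14 genes reported with the largest positive difference: KLK3 at -1.75, SPON2 at -0.07, FOLH1 at -2.16, GAGE12F at -3.47, MAGEA2B at -3.63, UGT2B15 at -4.77 and NETO1 at -5.29. In the control channel of the same array KLK3 was at -7.67. Of the 14 genes, 9 were more than 1 log2 unit higher in the miR-145 channel than in the control channel of that array, and 2 on the PC3 miR-145 array, where KLK3 was at -7.71. The miR-145 channel of LNCaP exceeded that of DU145 by 8.90 log2 units for KLK3, 8.50 for SPON2 and 8.73 for FOLH1. These values touch the DU145 side of the Cy5 comparison and none of the control channels, and their cause was not tested.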

How the results depend on the processing

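The counts of 1238 higher and 1004 lower features kept within 1.5 times under median scaling, quantile normalization, no filter, the later PC3 arrays as separate samples (1826 and 1392), the first slide only, slide as a block (985 and 808), control-miRNA arrays only, the spread of 7 lines and the mean over a gene's probes. Normexp background correction gave 634 lower features and, by size, 933 above and 664 below. Requiring signal well above background on all 8 arrays, which removes genes absent from either side, gave 490 higher and 485 lower, and 850 above and 714 below by size. The Cy5 channels of all 8 arrays gave 788 higher. Leaving out 1 sample gave 963 to 1216 higher and 807 to 944 lower. Of the 120 named genes called, 74 kept their call in all 19 alternatives in which they were tested. In the fit of the Cy5 channels of all 8 arrays, which held cells treated with genistein, miR-145, miR-23b, miR-24 or miR-27b, B2M (0.97), HLA-F (0.0821), RELB (0.19) and IRF1 (1.65) reversed, and the cause was not tested. On the first slide, PC3 and DU145 arrays of the same experiment were nearer each other than those of different experiments. Their median absolute difference was 0.53 between PC3 1 and DU145 1 and 0.515 between PC3 2 and DU145 2. Across experiments it was 0.608 and 0.597. LNCaP, from a miR-145 array, went both ways. It lay 0.605 from DU145 2 and 0.630 from DU145 1, but 0.646 from PC3 2 and 0.636 from PC3 1. With the experiment as a replicate block, an alternative chosen after seeing the data with 1 residual degree of freedom, 1615 features were higher and 1167 lower, sharing 1103 and 902 with the calls above, and 7 of the 120 named calls were lost. LNCaP without replicates is a limit, and its medium, passage and culture cannot be told apart from its line.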

Other observations

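Gene families were listed after the values had been seen, so the following counts describe the LNCaP sample and carry no test of the family. Of 21 tested cancer-testis genes of the MAGE, CSAG, GAGE, PAGE, XAGE, SSX, CTAG and CT47 families, 14 were higher and none lower. Of all features, 5.61% were higher and 4.55% lower. CSAG1 was at 4.43 in LNCaP against -3.19 or less and MAGEA10 at 0.35 against -6.77 or less. The array held 46 such genes. By the probes shown, only CSAG1, CSAG3 and MAGEA6 of the 14 would have passed the filter on dim probes without LNCaP. The other members of the 14 entered the test through LNCaP alone, so the count carries this selection. XAGE1A was at 1.26 in LNCaP, at a mean of -6.28 in PC3 and at 4.65 and 4.68 in DU145. These families lie mostly on the X chromosome, are normally read in the testis, and contain near-identical copies whose probes may overlap. Of 9 kallikreins, 5 were higher, adding KLK5 at -1.75 against -5.30 or less and KLK15 at -4.02 against -6.75 or less to KLK2, KLK3 and KLK4. All 4 tested UGT2B genes were higher, UGT2B10 at 2.89 against -1.52 or less, with UGT2B7 close to the limit (adjusted p = 0.0498 against PC3, limma). By the probes shown, KLK3, KLK4, KLK5, KLK15, UGT2B7, UGT2B11 and UGT2B15 passed the filter only through LNCaP. The counts of these 2 families carry the same selection, and the array held 15 kallikreins.

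On the other side, 6 of 13 genes with S100 names and 7 of 24 with integrin names were lower and none higher. Of all features, 4.55% were lower. The S100 set includes S100PBP, which encodes a binding protein and was not called. The integrin set includes ITGB1BP1, ITGB1BP2 and ITGB3BP, which were not called, and ITGBL1, which was lower. None of these genes of the integrin set encodes an integrin chain. Calls were fewer in the other families examined, with 3 of 30 collagens lower, 1 higher and 2 lower of 14 claudins and 1 of 10 metallothioneins higher. ITGA3, a laminin-binding chain, was at -3.92 against 2.70 to 3.28, ITGA2, a collagen-binding chain, at -6.89 against -3.82 to -1.93 and their partner ITGB1 at 0.06 against 2.31 to 3.76. Noncoding transcripts went both ways, with 89 higher and 38 lower of 884 named ones and 168 higher and 73 lower of 4144 lincRNA intervals. The shares were 10.1% and 4.30% of the named ones and 4.05% and 1.76% of the intervals, against 5.61% and 4.55% of all features. Higher ones included COLCA1 at 2.66 against -5.11 or less and DRAIC at 1.65 against -3.70 or less. The host genes MIR31HG and MIR100HG were not above background in LNCaP, at -6.91 and -6.90, and reached 0.58 and 2.59 elsewhere. By chromosome, the share of tested named genes called higher ran from 3.30% on chromosome 20 to 11.3% on chromosome 4.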
